A study of Mus musculus with 4 samples.

Results

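The tissue inhibitors of metalloproteinases were followed as a family of 4 genes, Timp1, Timp2, Timp3 and Timp4, taken by symbol from the 32285 genes counted. All 4 were present, and each was measured as unique molecular identifiers (UMIs), that is, tagged transcript 3′ ends. The libraries held mononuclear cells of skeletal muscle from mice aged 14 weeks: mdx5cv quadriceps, WT quadriceps, mdx5cv diaphragm and WT diaphragm. The mdx5cv mouse carries a mutation in the dystrophin gene Dmd and serves as a model of Duchenne muscular dystrophy, in a series concerned with fibro/adipogenic progenitors (FAPs), the connective-tissue progenitors of muscle. Cells had been stored frozen, muscle fibres are not part of such a preparation, and each group was 1 library whose number of animals, strain and sex the labels do not give. With 1 library per group no difference between groups could be tested, and every interval given here is a 95% interval that covers counting error only. A ratio between libraries therefore also holds whatever differed between the animals and the preparations.

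TIMP proteins bind the active site of metalloproteinases, the enzymes that cut collagens and other matrix proteins, and block them. Timp1 encodes a secreted inhibitor that responds strongly to inflammatory and growth signals. Timp2 encodes an inhibitor that also takes part, with the membrane protease encoded by Mmp14, in the activation of the proenzyme of Mmp2. Timp3 encodes the member that stays bound to the extracellular matrix and that also inhibits ADAM and ADAMTS proteases, whereas Timp4 is the member with the most restricted expression, known from heart and vessels. In muscular dystrophy, in which fibres are replaced by fibrous and fatty tissue, the balance of proteases and inhibitors bears on how much matrix remains.

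The 4 genes lie on different chromosomes (GENCODE M21, GRCm38). Timp1 (ENSMUSG00000001131) spans chrX:20870166-20874735 on the plus strand, inside the synapsin gene Syn1, which runs on the minus strand and none of whose exons overlaps it. Timp2 (ENSMUSG00000017466) spans chr11:118301069-118355740 on the minus strand and overlaps Cep295nl on the same strand (242 UMIs over the 4 libraries); whether the exons of the 2 overlap was not checked. Timp3 (ENSMUSG00000020044), at chr10:86300372-86349506 on the plus strand, lies within Syn3, and Timp4 (ENSMUSG00000030317), at chr6:115241892-115252205 on the minus strand, lies within Syn2, each on the strand opposite to its host, and annotated exons of Syn3 and Syn2 fall within their spans. The synapsins gave few UMIs over the 4 libraries (277 for Syn1, 189 for Syn3 and 798 for Syn2, in all barcodes kept), and none of them reached the level needed for a comparison in FAP-like cells.

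Because the 4 paralogues moved apart from each other in the dystrophic libraries, their promoters are shown, as the 100 bases before the RefSeq transcription start (GRCm38.p6), each 5′ to 3′ on the strand of its gene. The GENCODE spans above begin further upstream for Timp2 and Timp3. By those spans the Timp2 window lies wholly, and the Timp3 window partly, inside the gene. Capitals mark matches to the GC box GGGCGG on either strand.
Timp1, chrX:20870066-20870165, plus strand: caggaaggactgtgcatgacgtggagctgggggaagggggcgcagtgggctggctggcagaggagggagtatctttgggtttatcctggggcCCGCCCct
Timp2, chr11:118355412-118355511, minus strand: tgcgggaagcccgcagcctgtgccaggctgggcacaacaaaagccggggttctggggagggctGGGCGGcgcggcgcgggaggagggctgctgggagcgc
Timp3, chr10:86300312-86300411, plus strand: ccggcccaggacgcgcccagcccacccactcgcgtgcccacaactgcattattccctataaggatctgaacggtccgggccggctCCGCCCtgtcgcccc
Timp4, chr6:115252206-115252305, minus strand: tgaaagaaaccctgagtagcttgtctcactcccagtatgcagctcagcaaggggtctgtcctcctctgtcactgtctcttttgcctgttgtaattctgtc
Over the 300 bases from 250 before to 50 after the start, the Timp2 and Timp3 promoters were rich in CpG dinucleotides, with 25 and 24, against a median of 7 over 32544 promoters of that length. Timp1 had 8 and Timp4 had 2. The GC box was found in the windows of Timp1, Timp2 and Timp3 and in 35.9% of all promoters. The sequence TGAGTAA, a variant of the site bound by AP-1 (the Fos and Jun factors), was found only in the Timp1 window among the 4, beginning 27 bases into the transcript, and in 2.64% of all promoters. Neither the AP-1 site TGANTCA (7.79% of all promoters) nor TATAAA (13.6%) matched any of the 4 windows on either strand. A match describes letters only, and no match says only that they are not in this window.

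Barcodes with at least 1000 UMIs, 500 genes and at most 15% mitochondrial UMIs numbered 8334 in mdx5cv quadriceps, 4911 in WT quadriceps, 7402 in mdx5cv diaphragm and 7516 in WT diaphragm. The WT quadriceps library stood apart in depth, with a median of 2055 UMIs per cell against 4356 to 5328 in the other 3. Library pairs shared 5 to 17 barcodes. Cells were gated into 15 classes by the number of class markers detected, without using any Timp gene, and 24833 of 28163 cells (88.2%) were placed. Class make-up differed widely. FAP-like cells numbered 1417 in mdx5cv quadriceps, 879 in WT quadriceps, 3069 in mdx5cv diaphragm and 6252 in WT diaphragm. Endothelial-like cells numbered 465 in mdx5cv quadriceps, 2723 in WT quadriceps, 378 in mdx5cv diaphragm and 78 in WT diaphragm, and macrophage-like cells 3652 in mdx5cv quadriceps, 198 in WT quadriceps, 1574 in mdx5cv diaphragm and 139 in WT diaphragm. In a clustering made without the Timp genes, 11442 of the 11617 FAP-like cells lay in clusters that their markers named FAP-like. Some of these clusters were led by genes of other cells: Gata3, Csf2 and Skap1 (lymphoid), Igkc and Cd79a (B cell) or Fabp4 and Flt1 (endothelial). They are given here by their leading genes. With clusters of another name, here called mixed clusters, they held 53 FAP-like cells in mdx5cv quadriceps, 50 in WT quadriceps, 109 in mdx5cv diaphragm and 193 in WT diaphragm. Without these cells, an alternative chosen after the data were seen, the FAP-like log2 ratio of mdx5cv over WT for Timp1 was 4.82 (quadriceps) and 4.36 (diaphragm). For Timp2 it was -1.23 (quadriceps) and -0.45 (diaphragm), and for Timp3 -1.91 (quadriceps) and -1.29 (diaphragm). Levels below are CPM, the UMIs of a gene per 1000000 UMIs of all cells of a class in 1 library. Since each transcript gives a tag at its 3′ end, CPM of different genes were set side by side without a length correction.

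The paralogues were carried by different cells. Timp4 was an endothelial transcript, Timp3 was highest in endothelial-like, mural-like and mesothelial-like cells, Timp2 was high in stromal cells and was almost the only member in macrophage-like cells, and Timp1 was high in stromal cells of the dystrophic libraries and in tenocyte-like cells. Of all UMIs from the 4 genes, Timp2 gave 94.2% in macrophage-like cells of mdx5cv quadriceps, 93.9% in WT quadriceps, 89.3% in mdx5cv diaphragm and 96.2% in WT diaphragm. In FAP-like cells its share was 48.8% in mdx5cv quadriceps, against 72.8% in WT quadriceps. The same share was 39.4% in mdx5cv diaphragm, against 77.0% in WT diaphragm. Timp1 made up 40.8% in mdx5cv quadriceps and 55.3% in mdx5cv diaphragm, against 0.934% in WT quadriceps and 4.29% in WT diaphragm.

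**Figure D1:**
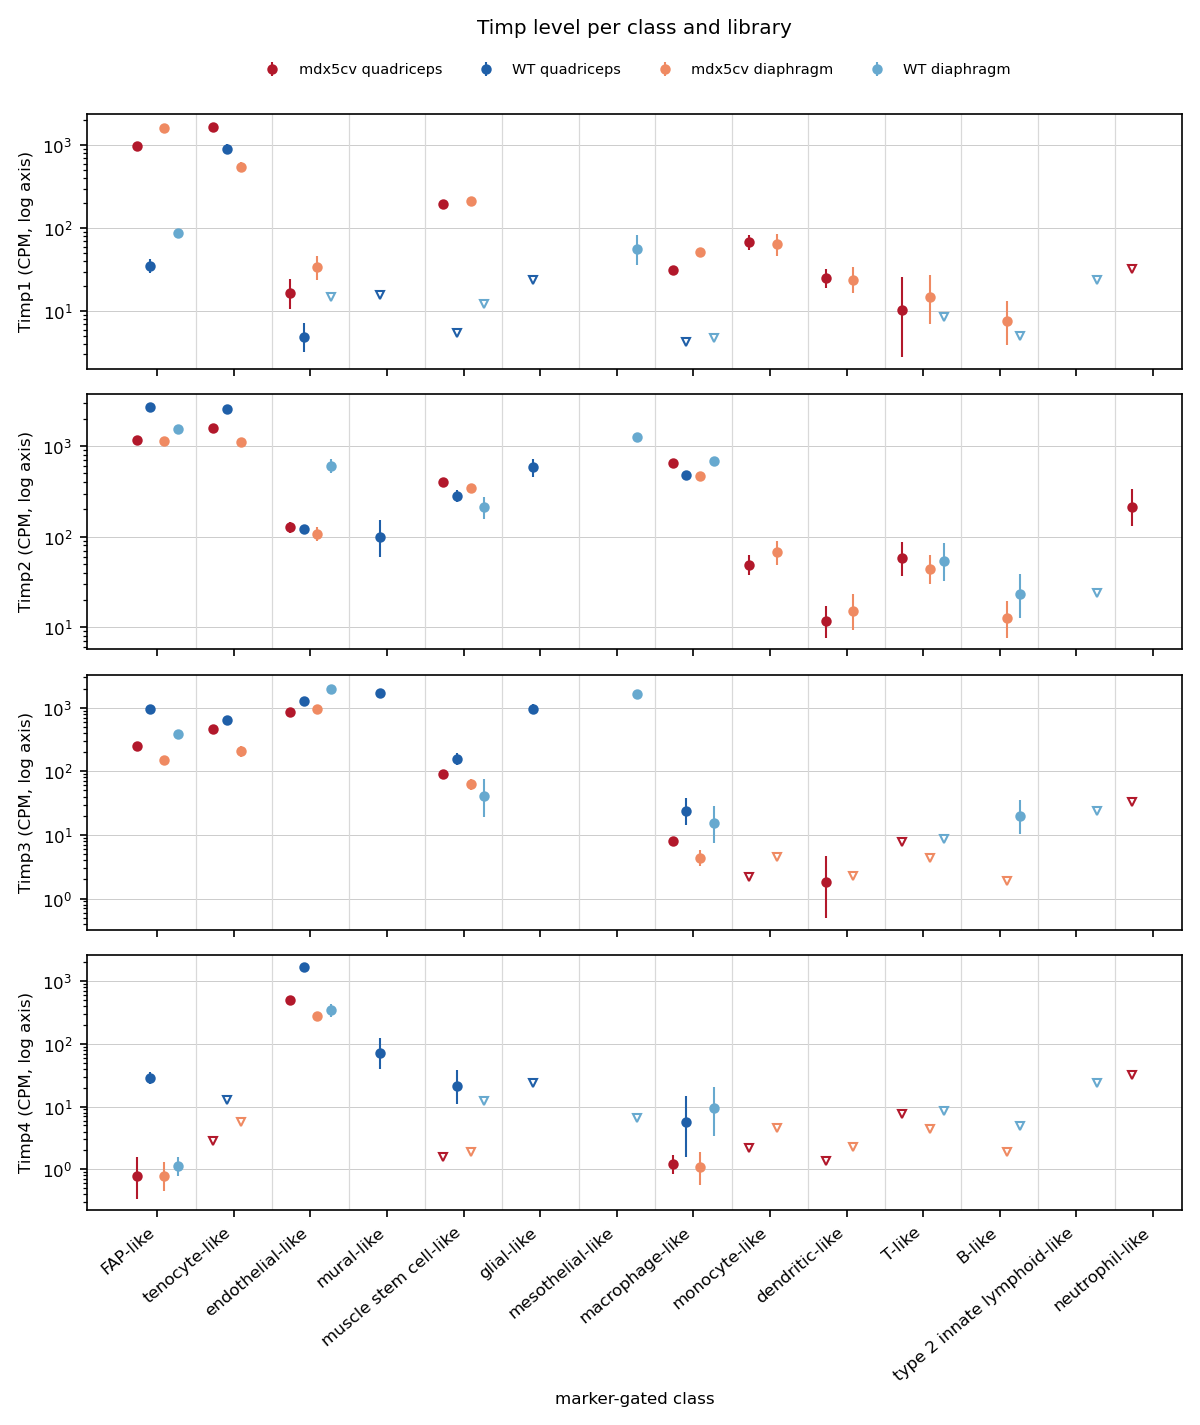
Level of each Timp gene in CPM (log axis) per marker-gated class with at least 50 cells, in the 4 libraries; bars are 95% Poisson intervals, and open triangles mark classes with under 3 UMIs, drawn at the value of 3 UMIs. For Timp4, endothelial-like cells lie above every other class drawn in each library. Timp1 of FAP-like cells lies at 969 and 1609 CPM in the mdx5cv libraries, against 34.9 and 87.2 CPM in the WT libraries.

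**Figure D2:**
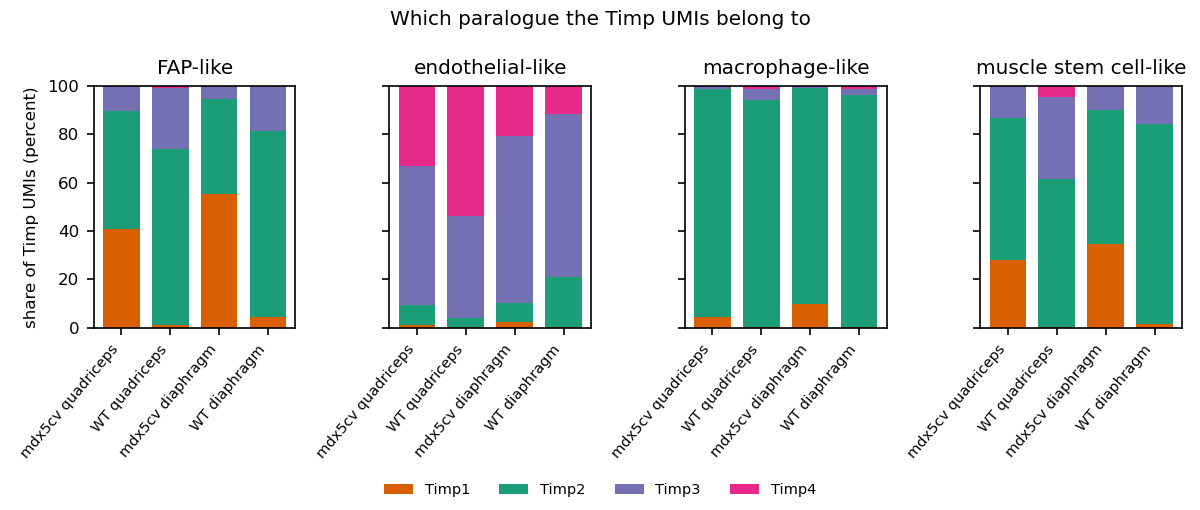
Share of the 4 paralogues among all Timp UMIs (percent) in 4 classes, with the mdx5cv library left of the WT library of each muscle. Macrophage-like bars are nearly all Timp2, endothelial-like bars are mostly Timp3 and Timp4, and Timp1 makes up 40.8% and 55.3% of the FAP-like bars of the mdx5cv libraries.

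Timp1, the inducible secreted inhibitor, was higher in FAP-like cells of both dystrophic muscles. Its level in FAP-like cells was 969 CPM (interval 950 to 989) in mdx5cv quadriceps, from 9864 UMIs, against 34.9 CPM (28.8 to 41.9) in WT quadriceps, from 114 UMIs. In diaphragm it was 1609 CPM (1591 to 1628) in mdx5cv, against 87.2 CPM (83.9 to 90.6) in WT. These are ratios of 27.8 (23.1 to 33.7) in quadriceps and 18.5 (17.7 to 19.2) in diaphragm, and both mdx5cv libraries lay above both WT libraries. Among all genes with at least 20 CPM in FAP-like cells of either library, 8.30% were 2-fold or more higher in mdx5cv quadriceps and 6.57% 2-fold or more lower. For mdx5cv diaphragm 3.70% were higher and 4.85% lower.

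Between muscles, Timp1 in FAP-like cells was higher in diaphragm in both genotypes. The ratio of diaphragm over quadriceps was 1.66 (1.62 to 1.70) in mdx5cv and 2.50 (2.07 to 3.04) in WT. The background for the muscle comparison was 0.994% of genes 2-fold or more higher and 3.31% lower in mdx5cv diaphragm, and 2.86% higher and 3.95% lower in WT diaphragm. Scaling by the trimmed mean of M-values (TMM) moved all ratios of diaphragm over quadriceps up by 0.17 on the log2 scale in mdx5cv and 0.18 in WT, which leaves the direction for Timp1.

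The FAP-like cells of the 4 libraries fell in different clusters, so the same gene was also read within clusters. In mdx5cv quadriceps 71.3% of FAP-like cells lay in a cluster led by Cxcl14, Mmp3, Timp1 and Tnc, and in mdx5cv diaphragm 64.3% lay in one led by Col6a5 and Fbln7. WT FAP-like cells lay mostly in clusters led by Ccl11 and Ces1d (30.3% in quadriceps, 28.0% in diaphragm), by Pla1a and Krtdap (34.4%, quadriceps), by Mfap4 and Angptl1 (24.2%, diaphragm), or by Stmn4 and Pcolce2 (23.0%, diaphragm). Although Timp1 was left out of the clustering it was itself among the leading genes of the first, which is called the Cxcl14, Mmp3 and Tnc cluster below. Timp1 was higher in mdx5cv than in WT within all 6 clusters that could be compared in diaphragm, of which 1, with a ratio of 3.41, is the cluster led by the lymphoid genes Gata3 and Csf2, by 1.66-fold to 6.49-fold, and with an interval above 1 in each. In quadriceps it was higher in 3 of 3, by 2.14-fold to 38.3-fold, with an interval above 1 in 2. In diaphragm every within-cluster ratio was thus below the pooled ratio of 18.5.

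The Cxcl14, Mmp3 and Tnc cluster held most of the Timp1 of both dystrophic muscles. In mdx5cv quadriceps it held 86.8% of the Timp1 UMIs of FAP-like cells. In mdx5cv diaphragm its 362 cells, 11.8% of the FAP-like cells, held 17993 of 30350 Timp1 UMIs (59.3%), at 5246 CPM, the highest level of any FAP-like cluster with at least 30 cells in a library. Only 6 cells of WT diaphragm fell in that cluster, so no ratio was read there. In quadriceps it gave the steepest within-cluster difference, with 1181 CPM in mdx5cv, against 30.8 CPM in WT (13 UMIs), a ratio of 38.3 (22.4 to 71.9). The other FAP-like cells differed less: in the Stmn4 and Pcolce2 cluster of diaphragm the level was 353 CPM in mdx5cv, against 54.4 CPM in WT. In the Col6a5 and Fbln7 cluster it was 877 CPM in mdx5cv diaphragm, against 329 CPM in WT diaphragm.

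**Figure D3:**
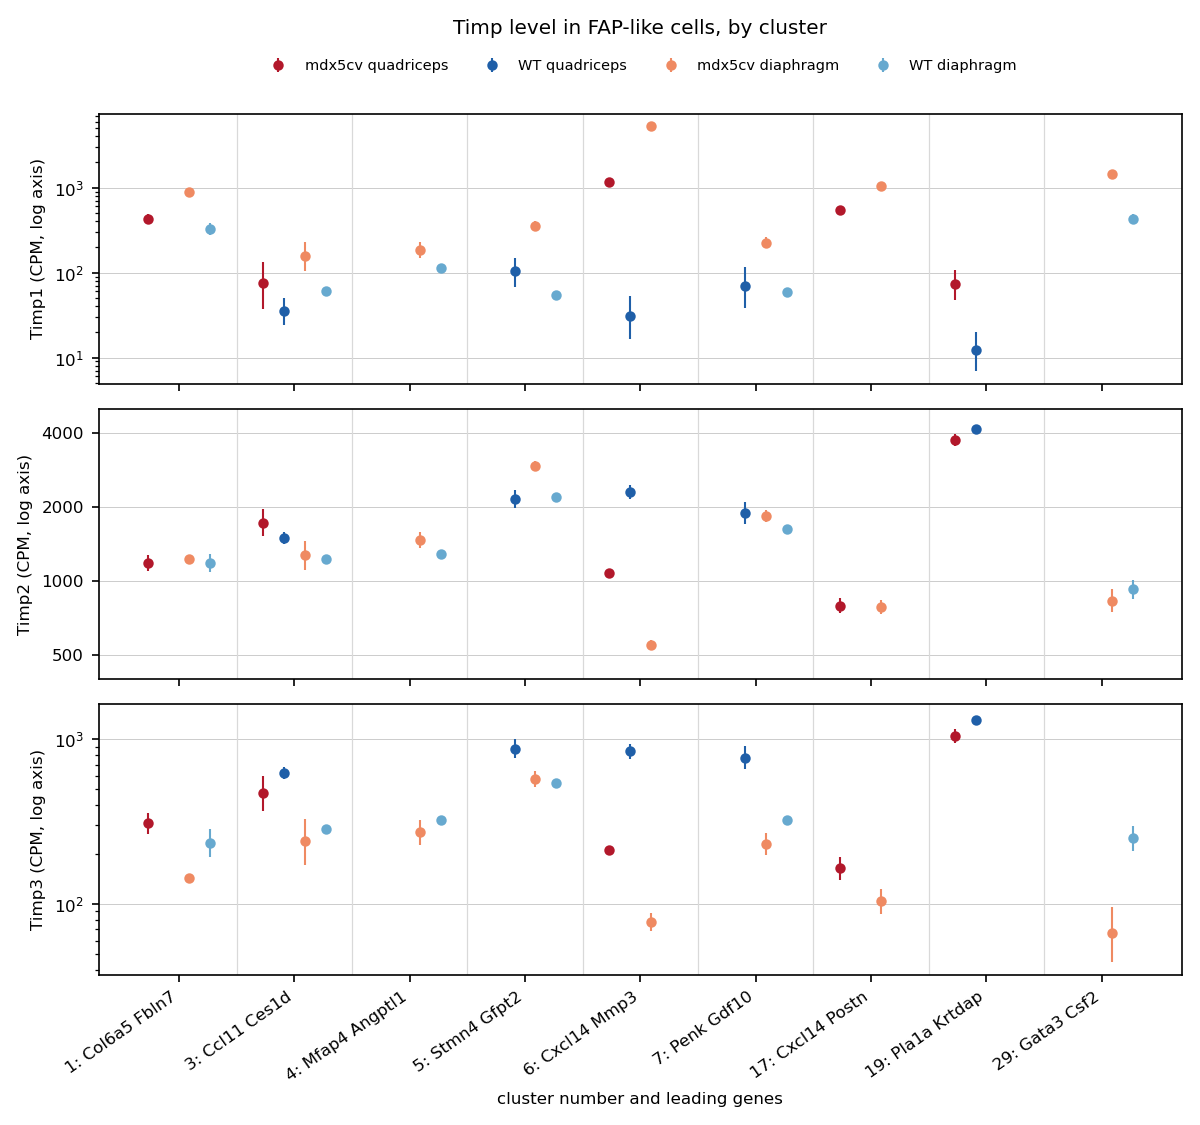
Timp1, Timp2 and Timp3 in CPM (log axis) in FAP-like cells, split by cluster (number and leading genes), for clusters with at least 30 such cells in at least 2 libraries; bars are 95% Poisson intervals. Timp1 of mdx5cv is above WT of the same muscle in each cluster where both are drawn, whereas Timp2 differs more between clusters than between genotypes, apart from cluster 6, where it is 1082 CPM in mdx5cv quadriceps and 2304 CPM in WT quadriceps.

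Timp1 was unevenly spread over FAP-like cells. Each cell was thinned to 1000 UMIs to set depth equal. After thinning, 27.4% of FAP-like cells had at least 1 Timp1 UMI in mdx5cv quadriceps, against 2.84% in WT quadriceps (unthinned, 60.1% in mdx5cv and 8.53% in WT). In diaphragm the thinned share was 31.7% in mdx5cv, against 5.33% in WT (unthinned, 61.5% in mdx5cv and 19.3% in WT). In endothelial-like cells, where Timp1 had 24 to 40 UMIs in 3 libraries and 1 in WT diaphragm, the thinned share was 1.08% in mdx5cv quadriceps, against 0.147% in WT quadriceps and was 2.91% in mdx5cv diaphragm. The estimate of free RNA described below was above the measured endothelial-like level of Timp1 in every library. It was 72.7 CPM against 16.4 CPM measured in mdx5cv quadriceps, and 19.4 against 4.89 CPM in WT quadriceps. In diaphragm it was 91.7 against 33.6 CPM in mdx5cv and 11.0 against 4.93 CPM in WT. Of the 27 endothelial-like Timp1 UMIs of WT quadriceps, 23 lay in cells of mixed clusters. Median depths before thinning ran from 3523 to 5267 UMIs in FAP-like cells and from 1691 to 2388 in endothelial-like cells.

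The 10% of FAP-like cells with the most Timp1 held 74.4% of its thinned UMIs in mdx5cv quadriceps, where the highest cell held 29. The same calculation gave 35.1% for Timp2 in that library, so Timp1 was the more uneven of the pair. Cells with a Timp1 UMI carried less Timp2 in all 4 libraries. They had 113 thinned Timp2 UMIs per 100 cells in mdx5cv quadriceps, against 158 in cells without one, a ratio of 0.720 (0.646 to 0.800). In WT quadriceps the ratio was 0.681 (0.497 to 0.912). In diaphragm it was 0.692 (0.643 to 0.743) in mdx5cv and 0.879 (0.799 to 0.966) in WT. The total of UMIs per thinned cell was fixed, and its part in these ratios was not tested.

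**Figure D4:**
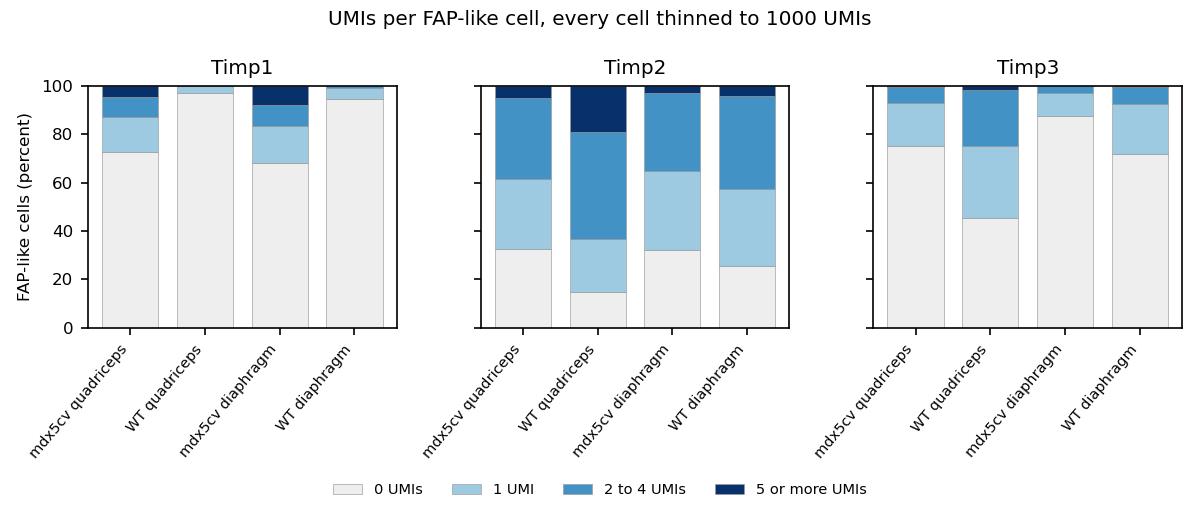
Percent of FAP-like cells with 0, 1, 2 to 4, or 5 or more UMIs of Timp1, Timp2 and Timp3 after thinning each cell to 1000 UMIs. For Timp1, 4.38% of cells in mdx5cv quadriceps had 5 or more UMIs while 72.6% had none; for Timp2, 32.3% had none.

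Tenocyte-like cells, gated by tendon genes such as Tnmd and Scx, carried Timp1 also in WT. Their level was 1660 CPM (1584 to 1740) in mdx5cv quadriceps, against 895 CPM (779 to 1024) in WT quadriceps, a ratio of 1.85 (1.61 to 2.15). In mdx5cv diaphragm it was 553 CPM (492 to 620), below the FAP-like cells of the same library, and WT diaphragm had too few tenocyte-like cells to be read. Over the 4 libraries 175 tenocyte-like cells lay in the tenocyte-like cluster, led by Fmod and Tnmd, and 134 in clusters named FAP-like. That tenocyte-like cluster held 7 cells of mdx5cv diaphragm in all, against 64 gated there as tenocyte-like. The level in mdx5cv diaphragm is thus mostly one of cells in other clusters. After thinning, 77.3% of the 66 tenocyte-like cells of WT quadriceps had no Timp1 UMI, while the highest cell held 21. In mdx5cv quadriceps 60.3% of 136 cells had none, and the highest held 23. The WT quadriceps level thus rests on few cells, and its interval does not cover the spread between cells. In WT quadriceps 36.7% of all Timp1 UMIs of the library came from 66 tenocyte-like cells, and a further 206 of its 578 Timp1 UMIs lay in 21 ungated cells of the tenocyte-like cluster. These ungated cells are not part of the level and the ratio of 1.85 given above, which therefore depend on the gate. Gated cells inside the tenocyte-like cluster held 2249 CPM in mdx5cv quadriceps, against 970 CPM in WT quadriceps. That is a ratio of 2.32 (2.01 to 2.69). FAP-like cells gave 19.7% of the library's Timp1 in WT quadriceps, against 65.0% in mdx5cv quadriceps, 90.7% in mdx5cv diaphragm and 97.7% in WT diaphragm.

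Muscle stem cell-like cells, gated by Pax7, Myod1 and similar genes, came next in order for Timp1 in the dystrophic libraries. The level was 195 CPM (175 to 215; 370 UMIs) in mdx5cv quadriceps, against 1.80 CPM in WT quadriceps (1 UMI). It was 215 CPM (193 to 239; 346 UMIs) in mdx5cv diaphragm, against 4.05 CPM in WT diaphragm (1 UMI). The ratios are 108 (19.3 to 4285) in quadriceps and 53.0 (9.46 to 2101) in diaphragm. The class background was high: 22.2% of genes were 2-fold or more higher and 9.71% lower in mdx5cv quadriceps, and 22.6% higher and 12.1% lower in mdx5cv diaphragm.

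Most mdx5cv cells of this class, 177 of 217 in quadriceps and 153 of 192 in diaphragm, lay in a cluster led by Chrna1 and Cdh15, which held 14 cells of WT quadriceps and 1 of WT diaphragm in all. In the cluster led by Chodl and Nppc, which held most WT cells, Timp1 had 19 UMIs in 38 cells of mdx5cv quadriceps, against 1 UMI in 234 cells of WT quadriceps (ratio 96.7, 15.4 to 4017). There it had 4 UMIs in 38 cells of mdx5cv diaphragm, against 1 UMI in 88 cells of WT diaphragm, and the interval of that ratio held 1.

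RNA free in the suspension was not measured directly, and indirect values were set beside these levels. Col1a1, Col3a1, Dcn and Gsn, stromal transcripts, stood in muscle stem cell-like cells of mdx5cv quadriceps at 0.213% to 4.64% of their FAP-like level, whereas Timp1 stood at 20.1%. In mdx5cv diaphragm these figures were 0.300% to 4.77% for the stromal transcripts and 13.4% for Timp1. An estimate of free RNA was made from markers of other classes and the profile of near-empty droplets; cells of mixed clusters add such markers too, so it is not a measure of free RNA alone. It gave 59.9 CPM of Timp1 in muscle stem cell-like cells of mdx5cv quadriceps and 96.7 CPM in those of mdx5cv diaphragm. In the same cells of the WT libraries the estimate, 26.8 CPM in quadriceps and 24.5 CPM in diaphragm, was above the level measured. Timp1 in macrophage-like cells was 30.9 CPM in mdx5cv quadriceps and 51.2 CPM in mdx5cv diaphragm, of which this estimate gives 87.0% and 56.6% to free RNA. It stood there at 3.19% and 3.18% of the FAP-like level, close to the highest stromal transcript (3.07% and 2.84%). Monocyte-like cells were above macrophage-like cells, with 67.3 CPM in mdx5cv quadriceps and 63.8 CPM in mdx5cv diaphragm, and their intervals overlapped in diaphragm.

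Timp2, the partner of Mmp14 and Mmp2, was the most abundant member in FAP-like cells of 3 libraries and was lower in those of both dystrophic muscles. Its level was 1160 CPM (1139 to 1181) in mdx5cv quadriceps, against 2718 CPM (2661 to 2775) in WT quadriceps. In diaphragm it was 1148 CPM (1132 to 1163) in mdx5cv, against 1567 CPM (1553 to 1581) in WT. The ratios are 0.427 (0.415 to 0.439) in quadriceps and 0.732 (0.721 to 0.744) in diaphragm, so Timp2 passed 2-fold in quadriceps only. With cells thinned to equal depth it no longer passed there, at a log2 ratio of -0.88. The genotype ratio in diaphragm was 1.72-fold that in quadriceps, on the log2 scale a difference of 0.78 (0.73 to 0.83).

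The 2 mdx5cv libraries held nearly the same Timp2 level in FAP-like cells, with a ratio of diaphragm over quadriceps of 0.990 (0.968 to 1.01); on the TMM scale its log2 value was 0.15 and not -0.02. Between the WT libraries the ratio was 0.577 (0.564 to 0.590). The difference between the muscles was therefore larger in WT than in mdx5cv. Tenocyte-like cells held 1609 CPM of Timp2 in mdx5cv quadriceps, against 2589 CPM in WT quadriceps, a ratio of 0.622 (0.567 to 0.683). Their interval overlapped that of FAP-like cells in WT quadriceps and in mdx5cv diaphragm, and lay above it in mdx5cv quadriceps. In mdx5cv diaphragm most cells gated as tenocyte-like lay outside the tenocyte-like cluster, as given above.

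Within clusters the pattern for Timp2 was another. In diaphragm 3 clusters of 6 had a ratio of mdx5cv over WT with an interval above 1. The intervals of the other 3 held 1, and none lay below 1. The ratios ran from 0.898, in the cluster led by Gata3 and Csf2, to 1.33. In the Stmn4 and Pcolce2 cluster it was 2927 CPM in mdx5cv diaphragm, against 2197 CPM in WT diaphragm. In quadriceps, 1 cluster of 3 had more and 2 had less, among them the Cxcl14, Mmp3 and Tnc cluster with 1082 CPM in mdx5cv, against 2304 CPM in WT (ratio 0.470, 0.439 to 0.502). In mdx5cv diaphragm the same cluster, so high in Timp1, had 552 CPM of Timp2, the lowest of any FAP-like cluster with at least 30 cells in a library, and 77.8 CPM of Timp3. The Pla1a and Krtdap cluster, which held the highest Timp2 of any FAP-like cluster, was close: 3739 CPM in mdx5cv quadriceps, against 4166 CPM in WT quadriceps. That cluster held 5.93% of FAP-like cells in mdx5cv quadriceps, against 34.4% in WT quadriceps. In diaphragm, then, the pooled ratio of 0.732 was below every within-cluster ratio read, the lowest being 0.898. Of the within-cluster intervals, 3 of 6 lay above 1, in clusters made from the same cells.

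Macrophage-like cells were the other source of Timp2. They held 659 CPM (649 to 669) in mdx5cv quadriceps, against 482 CPM (432 to 536) in WT quadriceps, and 475 CPM (462 to 488) in mdx5cv diaphragm, against 682 CPM (619 to 749) in WT diaphragm. The ratios were 1.37 (1.23 to 1.53) in quadriceps and 0.696 (0.631 to 0.769) in diaphragm, on opposite sides of 1 and both under 2-fold, and the log2 ratio in diaphragm minus that in quadriceps was -0.97 (-1.18 to -0.76). The shares of genes past 2-fold in these cells were 11.0% higher and 5.77% lower for quadriceps, and 12.3% higher and 6.39% lower for diaphragm. Macrophage-like Timp2 stood at 17.7% to 56.8% of the FAP-like level of its library, while the 4 stromal transcripts stood at 3.07% or less. Since macrophage-like cells were so many in mdx5cv quadriceps, they gave 48.2% of that library's Timp2 UMIs and FAP-like cells 32.7%. In WT quadriceps macrophage-like cells gave 2.85% and FAP-like cells 74.7%.

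Among macrophage-like cells of mdx5cv quadriceps, Timp2 was highest in the cluster led by C1qa and C1qc (773 CPM), followed by those led by Spp1, Gpnmb and Trem2 (704 CPM), by the interferon-responsive genes Ifit3 and Cxcl10 (637 CPM) and by the proliferation genes Birc5 and Top2a (550 CPM). It was lowest in the Retnla and Ear2 cluster (330 CPM) and in the Chil3 and Ly6c2 cluster (152 CPM). In mdx5cv diaphragm the C1qa cluster was again highest (584 CPM), with 444 CPM in the Spp1 cluster, and the Retnla (234 CPM) and Chil3 (235 CPM) clusters were the lowest. Cells gated as monocyte-like had 48.8 CPM in mdx5cv quadriceps and 66.8 CPM in mdx5cv diaphragm, and dendritic-like cells 11.7 CPM in mdx5cv quadriceps.

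Timp2 in muscle stem cell-like cells was 406 CPM in mdx5cv quadriceps, against 284 CPM in WT quadriceps, and 346 CPM in mdx5cv diaphragm, against 211 CPM in WT diaphragm. The ratios were 1.43 (1.20 to 1.71) and 1.64 (1.23 to 2.23). The estimate of free RNA came to 74.9% of the class's Timp2 in WT quadriceps and all of it in WT diaphragm, against 21.4% in mdx5cv quadriceps and 24.7% in mdx5cv diaphragm.

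Timp3, the matrix-bound inhibitor, was lower in FAP-like cells of both dystrophic muscles, with ratios further below 1 than those of Timp2. Its level was 247 CPM (238 to 257) in mdx5cv quadriceps, against 952 CPM (919 to 986) in WT quadriceps. In diaphragm it was 152 CPM (146 to 157) in mdx5cv, against 379 CPM (372 to 386) in WT. The ratios of 0.260 (0.246 to 0.274) and 0.401 (0.385 to 0.418) both lie past 2-fold. Diaphragm was below quadriceps in both genotypes, with ratios of 0.614 (0.582 to 0.648) in mdx5cv and 0.398 (0.382 to 0.414) in WT.

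Within FAP-like clusters the ratios of Timp3 were mostly closer to 1 than the pooled ones. All 3 quadriceps clusters had an interval below 1, with ratios from 0.252 in the Cxcl14, Mmp3 and Tnc cluster to 0.803 in the Pla1a and Krtdap cluster. In diaphragm 4 of 6 had an interval below 1 and 2 had an interval that held 1. The lowest ratio there, 0.267, came from a cluster whose leading genes, Gata3, Csf2 and Skap1, are those of lymphoid cells. The next lowest was 0.612 in the Col6a5 and Fbln7 cluster.

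Timp3 in endothelial-like cells was 865 CPM (818 to 914) in mdx5cv quadriceps, against 1285 CPM (1256 to 1316) in WT quadriceps, a ratio of 0.673 (0.633 to 0.714). In diaphragm it was 944 CPM (890 to 1001) in mdx5cv, against 1963 CPM (1775 to 2166) in WT, from 78 WT cells. Of those 78 cells, 30 lay in a cluster led by Ccl21a, Mmrn1 and Lyve1, genes of lymphatic endothelium, which held 3190 CPM of Timp3, 1358 CPM of Timp2 and no Timp4 UMI. Without that cluster, an alternative chosen after the data were seen, the log2 ratio of Timp3 in diaphragm was -0.31 and not -1.06, and that of Timp2 was 0.43 and not -2.50. Endothelial Timp2, at 127 CPM in mdx5cv quadriceps, 121 CPM in WT quadriceps and 108 CPM in mdx5cv diaphragm, stood beside estimates for free RNA of 106 CPM in mdx5cv quadriceps, 154 CPM in WT quadriceps and 81.2 CPM in mdx5cv diaphragm. Of the 668 endothelial-like Timp2 UMIs of WT quadriceps, 366 lay in the 175 cells of clusters of another name or led by other cells' genes.

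Several small classes were also rich in Timp3. Mural-like cells, that is, pericytes and smooth muscle cells, had 1687 CPM (1509 to 1881) in WT quadriceps, the highest of that library, and glial-like cells had 967 CPM (804 to 1154), which overlapped the FAP-like level of 952 CPM. Mesothelial-like cells, the lining of the diaphragm surface, had 1669 CPM (1551 to 1793) in WT diaphragm, where their interval overlapped that of endothelial-like cells. They also had 1277 CPM of Timp2 and 55.7 CPM (36.0 to 82.2) of Timp1. In mesothelial-like cells the estimate for free RNA came to 29.1% of the Timp2 and 52.7% of the Timp1, which had 25 UMIs. These classes held fewer than 50 cells in the mdx5cv libraries and give no genotype ratio. Timp3 in macrophage-like cells was 8.11 CPM in mdx5cv quadriceps, against 24.2 CPM in WT quadriceps, and nearly all of it fell within the estimate for free RNA.

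Timp4, the member with the narrowest pattern, was an endothelial transcript in every library. Endothelial-like cells gave 81.8% of its UMIs in mdx5cv quadriceps, 95.7% in WT quadriceps, 80.0% in mdx5cv diaphragm and 56.6% in WT diaphragm, where the whole library held 122. Its endothelial level was 496 CPM (461 to 533) in mdx5cv quadriceps, against 1650 CPM (1617 to 1685) in WT quadriceps, a ratio of 0.301 (0.278 to 0.324). In diaphragm it was 281 CPM (252 to 313) in mdx5cv, against 340 CPM (265 to 431) in WT, and the ratio of 0.826 had an interval from 0.636 to 1.09. Its direction turned with a limit of 5% on mitochondrial UMIs, under which the log2 ratio in diaphragm was 2.21 and not -0.28. In WT diaphragm 30 of the 78 endothelial-like cells lay in the cluster led by Ccl21a and Mmrn1, where they held no Timp4 UMI. In mdx5cv diaphragm 18 of 378 lay there, so the ratio was taken over cells of differing make-up. Leaving that cluster out, an alternative chosen after the data were seen, raises the WT level, and the ratio stayed below 1. In endothelial-like cells 7.51% of genes were 2-fold or more higher and 2.46% lower in mdx5cv quadriceps, and 8.67% higher and 8.74% lower in mdx5cv diaphragm. Timp4 alone of the 4 passed 2-fold in quadriceps among those with at least 20 CPM.

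**Figure D5:**
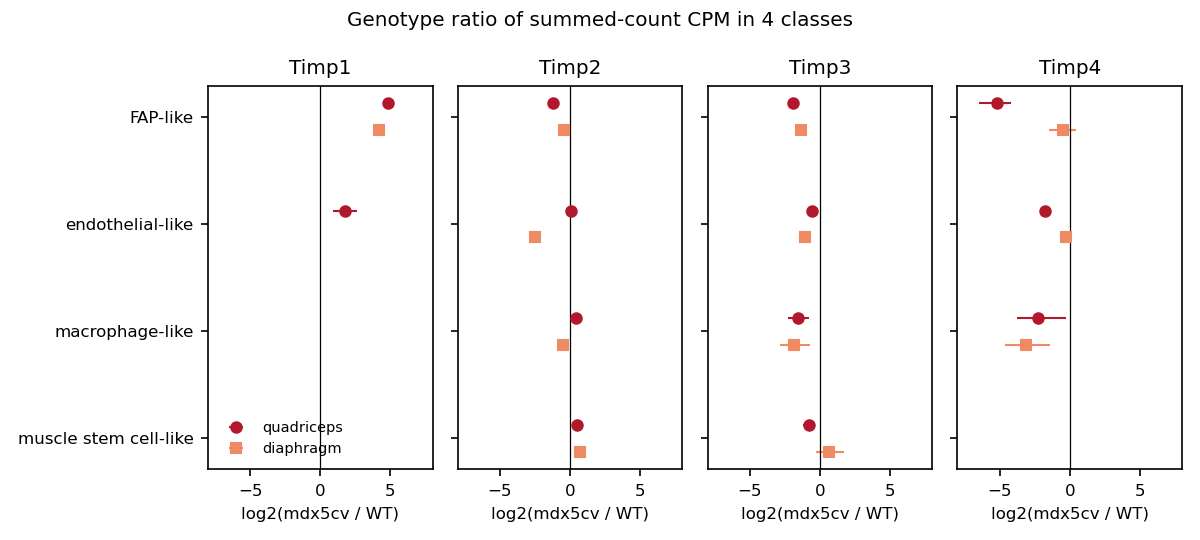
Log2 ratio of mdx5cv over WT CPM for each Timp gene in 4 classes, in quadriceps (circles) and diaphragm (squares), with 95% conditional intervals; pairs with under 3 UMIs on either side are not drawn. Timp1 of FAP-like cells lies at 4.80 and 4.21, Timp3 of FAP-like cells at -1.95 and -1.32, and Timp2 of macrophage-like cells on both sides of 0.

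Timp4 differed both between endothelial clusters and between genotypes. In quadriceps it was highest in the cluster led by the capillary genes Aqp1 and Gpihbp1 and by Timp4 itself, which was not used to make the clusters, with 768 CPM in mdx5cv, against 2349 CPM in WT. It was 490 CPM in mdx5cv, against 1026 CPM in WT, in the cluster led by Rbp7 and Sox17, and 76.3 CPM in mdx5cv, against 160 CPM in WT, in the cluster led by the venous genes Plvap and Vwf. The ratio was below 1 with its interval in all 3, from 0.327 to 0.478. In the same clusters Timp3 was lower in mdx5cv in 2 and higher in 1, the Rbp7 and Sox17 cluster, with 1539 CPM in mdx5cv, against 1307 CPM in WT.

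FAP-like cells held 8 Timp4 UMIs in mdx5cv quadriceps, 94 in WT quadriceps, 15 in mdx5cv diaphragm and 34 in WT diaphragm. The level was 0.786 CPM in mdx5cv quadriceps, against 28.8 CPM in WT quadriceps, and 0.795 CPM in mdx5cv diaphragm, against 1.12 CPM in WT diaphragm, each below its estimate for free RNA (47.4 CPM in WT quadriceps). The UMIs were not spread evenly over the cells. Of these UMIs, 3 of 8 in mdx5cv quadriceps lay in the 53 FAP-like cells of clusters of another name or led by other cells' genes, and 60 of 94 in WT quadriceps in 50 such cells. In mdx5cv diaphragm 5 of 15 lay in 109 such cells, and in WT diaphragm 23 of 34 lay in 193 such cells, 19 of them in 44 cells of the mural-like cluster led by Myh11 and Myl9. The part of free RNA and of mixed droplets in these UMIs was not tested, and the ratios of Timp4 in FAP-like cells are not read further.

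Proteases and other partners of the family in FAP-like cells were counted from lists of pathway genes. Of 18 matrix metalloproteinases, 8 could be compared in quadriceps, of which 5 were 2-fold or more higher and none lower in mdx5cv, against 8.30% higher and 6.57% lower over all genes, with a median log2 ratio of 1.68 against 0.06. In diaphragm 2 of 7 were higher and none lower, against 3.70% higher and 4.85% lower over all genes, with a median of 0.56 against 0.05. Of the 5 in quadriceps, Mmp9 and Mmp12 lay near the lowest level compared. In mdx5cv quadriceps they had 222 and 253 UMIs (21.8 and 24.9 CPM), against 1 and 0 UMIs in WT quadriceps. Free RNA was estimated at 10.7% of FAP-like UMIs in mdx5cv quadriceps. Macrophage-like cells made up 43.8% of that library and 4.03% of WT quadriceps. The part of free RNA in the count of 5 and the median of 1.68 was not tested. Mmp14, the membrane protease that Timp2 binds, was 456 CPM in mdx5cv quadriceps, against 113 CPM in WT quadriceps, and 235 CPM in mdx5cv diaphragm, against 64.8 CPM in WT diaphragm. Mmp3, stromelysin 1, was 318 CPM in mdx5cv quadriceps, a ratio of 10.6 over WT quadriceps (98 UMIs), and 153 CPM in mdx5cv diaphragm, against 39.3 CPM in WT diaphragm. These were the members higher in both muscles.

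Summed over the family, FAP-like cells held 0.961 Timp UMIs (0.944 to 0.978) per UMI of a matrix metalloproteinase in mdx5cv quadriceps, against 2.63 (2.55 to 2.73) in WT quadriceps. In diaphragm the number was 1.18 (1.17 to 1.20) in mdx5cv, against 1.43 (1.41 to 1.44) in WT. Endothelial-like cells held 3.93 (3.58 to 4.31) in mdx5cv quadriceps, against 22.2 to 25.9 in WT quadriceps, and 6.17 in mdx5cv diaphragm, against 20.4 in WT diaphragm (29 metalloproteinase UMIs). The estimate for free RNA, as a share of all endothelial-like UMIs, was highest in WT quadriceps at 31.7% and was 12.5% in mdx5cv diaphragm and 12.0% in WT diaphragm; its part in these ratios was not tested. Other classes did not all go the same way. Muscle stem cell-like cells held 2.78 to 3.47 (95% interval) in mdx5cv quadriceps, against 1.94 to 3.09 in WT quadriceps, and 4.29 (3.72 to 4.97) in mdx5cv diaphragm, against 2.86 (1.74 to 4.89) in WT diaphragm, with overlapping intervals in both muscles. Macrophage-like cells held 1.27 in mdx5cv quadriceps, against 2.98 in WT quadriceps, and 1.88 in mdx5cv diaphragm, against 1.81 in WT diaphragm, where the intervals overlapped. The summed Timp level itself was 2377 CPM in FAP-like cells of mdx5cv quadriceps, against 3733 CPM in WT quadriceps, and 2910 CPM in mdx5cv diaphragm, against 2034 CPM in WT diaphragm. It was thus lower in one dystrophic muscle and higher in the other, while the summed metalloproteinase level was higher in both: 2473 CPM in mdx5cv quadriceps, against 1417 CPM in WT quadriceps, and 2457 CPM in mdx5cv diaphragm, against 1427 CPM in WT diaphragm. These are transcript sums and say nothing of active enzyme.

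Of ADAM and ADAMTS proteases, which Timp3 inhibits, 2 of 17 were higher and 3 lower in mdx5cv quadriceps (8.30% and 6.57% of all genes), and 1 of 14 higher and 1 lower in mdx5cv diaphragm (3.70% and 4.85% of all genes). Their median log2 ratios of 0.02 in quadriceps and 0.06 in diaphragm lay close to those of all genes. Adam12, a protease of mesenchymal cells, was the member higher in both, at 105 CPM in mdx5cv quadriceps, against 1.22 CPM in WT quadriceps (4 UMIs), and 69.8 CPM in mdx5cv diaphragm, against 4.08 CPM in WT diaphragm. Other protease inhibitors that could be compared numbered 6 in each muscle: in mdx5cv quadriceps 3 were higher and 1 lower, and in mdx5cv diaphragm 1 was higher and 2 were lower, beside 8.30% and 6.57% of all genes in quadriceps and 3.70% and 4.85% in diaphragm. Their median log2 ratio was 0.80 in quadriceps and 0.24 in diaphragm. Reck, a membrane-anchored inhibitor of metalloproteinases, was lower in both muscles, with 34.8 CPM in mdx5cv quadriceps, against 94.9 CPM in WT quadriceps, and 21.4 CPM in mdx5cv diaphragm, against 111 CPM in WT diaphragm. Serpina3n, a secreted serine protease inhibitor, was higher in both, by 4.23-fold in quadriceps and 2.83-fold in diaphragm.

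Of the receptors and binding partners of TIMP proteins, 1 of 6 was higher and 1 lower in mdx5cv quadriceps, and among 7 compared in diaphragm the counts were the same. The shares of all genes were 8.30% higher with 6.57% lower (quadriceps) and 3.70% higher with 4.85% lower (diaphragm). The median log2 ratio of the list was 0.08 in quadriceps and -0.43 in diaphragm. Cd44, a hyaluronan receptor, was 4.14-fold higher in mdx5cv quadriceps and 2.51-fold higher in mdx5cv diaphragm. Efemp1, a fibulin that binds TIMP3, stood at 0.130 of WT in mdx5cv quadriceps and 0.186 of WT in mdx5cv diaphragm. Of genes with the netrin-like domain that TIMP proteins carry, 1 of 6 was higher and 1 lower in mdx5cv quadriceps (8.30% and 6.57% of all genes; median log2 ratio -0.43), and in mdx5cv diaphragm 1 of 6 was higher and 3 were lower (3.70% and 4.85% of all genes; median -0.72). Pcolce2, an enhancer of procollagen cleavage, stood at 0.116 of WT in mdx5cv quadriceps and 0.143 of WT in mdx5cv diaphragm, and Sfrp1, a secreted Wnt antagonist, was 2.61-fold and 2.88-fold higher. Of cytokines and receptors known to induce Timp1, 5 of 11 were higher and none lower in mdx5cv quadriceps (8.30% and 6.57% of all genes; median log2 ratio 0.78), and in mdx5cv diaphragm 2 of 12 were higher and 1 lower (3.70% and 4.85% of all genes; median 0.14). Tgfb3, a member of the transforming growth factor family, was 3.12-fold higher in mdx5cv quadriceps and 2.32-fold in mdx5cv diaphragm, and Il1r1, the interleukin-1 receptor, 2.33-fold and 2.17-fold. These lists were chosen with results of these data known and are read as counts only.

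Genes most like each member were taken by Pearson r of log2(CPM + 10) over 33 points, each 1 class of 1 library with at least 50 cells, among 7873 genes. The points share libraries and depth, so r is a description. Timp1 was closest to Sec61a1 (r = 0.906), Tnc (0.900) and Prrx2 (0.896), Timp2 to Mir99ahg (0.903), Ctsf (0.874) and Ctsl (0.869), Timp3 to Cdc42bpa (0.960), Fermt2 (0.952) and Epn2 (0.946), and Timp4 to Gpihbp1 (0.977), Adgrf5 (0.974) and C1qtnf9 (0.973). Among the members themselves r was highest between Timp3 and Timp4 (0.618), followed by Timp2 and Timp3 (0.573) and Timp1 and Timp2 (0.560), and was -0.288 between Timp1 and Timp4.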

How the data were processed

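Whole UMI counts per gene and barcode for mononuclear cells of 4 libraries were deposited by the authors as unfiltered matrices. The submitters' processing notes name Cell Ranger 5.0.0 and mm10, whereas the file headers name Cell Ranger 4; the chemistry was 10x Genomics 3′ v3.1, per the labels. Totals ran from 18837891 to 62780685 UMIs.

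Barcodes with at least 1000 UMIs, 500 genes and at most 15% mitochondrial UMIs were kept. A cell took the class with the most detected markers, if at least 2 and at least 2 more than any other class; FAP-like cells with at least 3 tendon markers became tenocyte-like. No doublet caller was run. The lead rule left some cells with markers of several classes ungated but not all, since gated cells were found in clusters led by another class's genes. UMIs were summed per class and library, giving CPM with exact Poisson intervals and ratios with exact conditional intervals. Classes under 50 cells were not read. Genes with at least 20 CPM in 1 of 2 libraries and a 2-fold ratio were counted, a count under 3 being set to 3. Each cell was thinned to 1000 UMIs for shares of cells. Free RNA was estimated from barcodes with 10 to 100 UMIs and markers of other classes. Clusters came from 2000 variable genes without the Timp genes, 30 principal components, 15 neighbours and Leiden resolution 1.0, which gave 38 clusters, named by leading genes. Members and lists were chosen with earlier results of these data known. List genes were named if 2-fold or more in the same direction in FAP-like cells of both muscles. The fold count and the ratio interval were tested on Poisson counts simulated from the FAP-like profile. Gating, clustering, the estimate of free RNA and TMM scaling were not tested in this way. Alternatives were a stricter gate, clusters in place of gates, at least 2000 UMIs, at most 5% mitochondrial UMIs, thinning, subtraction of free RNA, TMM scaling, no low-level filter, and, chosen after seeing the data, leaving out the Mmrn1 cluster or the mixed clusters, meaning gated cells in clusters of another name or led by another class's genes. Positions came from GENCODE M21 and promoters from RefSeq (4 of 4 genes matched). Software was scanpy 1.11.5 with leidenalg 0.10.2, scipy 1.17.1, numpy 2.4.6, pandas 2.3.3 and matplotlib 3.10.9 under Python 3.11.15, and edgeR 4.0.16 under R 4.3.3 for the TMM factors alone.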

Additional observations from a re-analysis of the deposited data

Results flagged for a closer look

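Timp2 in macrophage-like cells went opposite ways in the 2 muscles: the ratio of mdx5cv over WT was 1.37 in quadriceps and 0.696 in diaphragm, and the difference between them was not tested across animals, with 1 library per group. Inside the C1qa and C1qc cluster, quadriceps had a ratio of 1.40 (1.22 to 1.60), and the diaphragm ratio was 0.908 with an interval of 0.797 to 1.04.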

How the results depend on the processing

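No paired analysis was possible because each group is 1 library and no test was run. The cause of each move below was not tested. Ratios are log2 in FAP-like cells, mdx5cv over WT unless given as diaphragm over quadriceps. Timp1 in quadriceps (4.80) kept its direction under the 8 alternatives run for it, with values of 4.69 to 4.98. Timp1 in diaphragm (4.21) was 4.30 with a 5% mitochondrial limit, 4.13 thinned, 4.31 with free RNA subtracted, 4.13 with TMM and 4.36 without mixed clusters. Timp2 in quadriceps (-1.23) was -1.28 with the 5% limit and -0.88 thinned, where it no longer passed 2-fold; in diaphragm (-0.45) it was -0.47 with clusters, -0.58 with the 5% limit, -0.22 thinned, -0.42 with free RNA subtracted and -0.53 with TMM. Timp3 in quadriceps (-1.95) was -2.09 with clusters, -2.03 with the 5% limit and -1.45 thinned; in diaphragm (-1.32) it was -1.42 with the 5% limit, -1.22 thinned and -1.40 with TMM. For diaphragm over quadriceps in mdx5cv, Timp1 (0.73) was 0.80 with clusters, 0.78 with the 5% limit, 0.62 thinned and 0.90 with TMM, and Timp3 (-0.70) was -0.62 with clusters, -1.09 thinned and -0.54 with TMM. Timp2 (-0.02) was -0.0686 with the 5% limit and -0.13 thinned, and changed sign to 0.0196 with clusters and 0.15 with TMM. For diaphragm over quadriceps in WT, Timp2 (-0.79) was -0.84 with free RNA subtracted and -0.62 with TMM, and Timp3 (-1.33) was -1.39 with clusters and -1.15 with TMM.

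Timp4 in FAP-like cells rests on few UMIs. In quadriceps (-5.19) it was -3.43 thinned and -1.58 with free RNA subtracted. In diaphragm (-0.49) it changed sign to 1.29 with clusters, 0.31 with the 5% limit, 0.68 with free RNA subtracted and 0.56 without mixed clusters. In mdx5cv diaphragm over quadriceps (0.02) it changed sign to -0.28 with the stricter gate, -1.36 with clusters, -0.0834 with 2000 UMIs, -0.62 with the 5% limit, -1.11 thinned and -0.88 with free RNA subtracted. In WT diaphragm over quadriceps (-4.69) it was -7.13 with clusters, -6.25 with the 5% limit and -3.15 with free RNA subtracted.

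FAP-like cells were the highest class for Timp1 in 2 libraries of 4, in 3 with the stricter gate, 1 with clusters and 4 with the 5% limit. For Timp2 they were the highest in 3, in 2 with clusters, 4 with the 5% limit and 2 thinned. Endothelial-like cells were the highest for Timp4 in 4, in 3 with 2000 UMIs and in 3 with the 5% limit. Genes past 2-fold in FAP-like cells numbered 1052 in quadriceps and 548 in diaphragm, and 6951 and 3135 with no filter on low levels.

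Other classes changed sign as follows. Endothelial-like Timp1 in diaphragm was -0.0221 with the 5% limit, -0.28 thinned and -2.54 with free RNA subtracted. Endothelial-like Timp2 in quadriceps was -0.47 with 2000 UMIs, -0.94 with the 5% limit and -0.0763 without the Mmrn1 cluster, and in diaphragm 0.43 without that cluster. Endothelial-like Timp4 in diaphragm was 2.21 with the 5% limit. Macrophage-like Timp1 in quadriceps was -0.0517 with free RNA subtracted. Muscle stem cell-like Timp3 was 0.0053 thinned and 3.44 with free RNA subtracted in quadriceps, and -1.60 with the 5% limit in diaphragm.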
